A study of Mus musculus with 18 samples.

Results

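The genes described here are 43 cell cycle and DNA replication genes of mpkCCD cells, a mouse cell line that keeps traits of collecting duct principal cells in the kidney. They were picked by gene symbol from the 24111 genes of the deposited count table, and every symbol was found. The list was split by function into 20 replication genes (Mcm2, Mcm3, Mcm4, Mcm5, Mcm6, Mcm7, Pcna, Cdc45, Cdc6, Cdt1, Gins2, Rrm1, Rrm2, Tyms, Ccne1, Ccne2, Ccnd1, E2f1, Uhrf1 and Chek1) and 23 mitosis genes (Mki67, Top2a, Ccna2, Ccnb1, Ccnb2, Cdk1, Cdc20, Cdca8, Aurka, Aurkb, Bub1, Bub1b, Plk1, Kif11, Kif20a, Kif23, Cenpa, Cenpe, Cenpf, Birc5, Tpx2, Ube2c and Nusap1). RNA was sequenced from 9 control libraries and 9 libraries of cells treated with dDAVP (desmopressin, an analogue of vasopressin that activates its V2 receptor). Both groups were mpkCCD11 cells grown on permeable supports in 2% serum with insulin, dexamethasone, triiodothyronine and epidermal growth factor until confluent. Both were then held without serum for 24 h, and a further 24 h without serum followed, in the absence of dDAVP (control) or with dDAVP at 0.1 nM. The line is immortal and was derived from mice that carry the SV40 large T antigen under a liver-type pyruvate kinase promoter, so control and treated cells share this oncoprotein.

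Replication is licensed when the Mcm2 to Mcm7 helicase is loaded on DNA by Cdc6 and Cdt1, and it starts when cyclin E and cyclin A kinases fire the loaded origins. The genes for this step are targets of E2F factors, which the Rb family holds back until cyclin D kinases release them, and large T antigen binds the Rb family too. Mitosis genes are switched on later, largely through CHR elements and CCAAT boxes, and their products build the spindle, attach chromosomes and time their separation. Most cells of the adult collecting duct are not dividing, and a confluent culture without serum is a setting in which division is usually slowed.

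The promoters that follow show these elements in genes whose levels are described further on. Each run is the 250 bases before the start of transcription in RefSeq (GRCm38.p6, the assembly also called mm10), written 5′ to 3′ on the strand of the gene. Capitals mark E2F sites (TTTCCCGC, TTTCGCGC, TTTGCCGC or TTTGGCGC), CHR elements (TTTGAA or TTCGAA) and CCAAT boxes (CCAAT), each searched on both strands. Mcm5 is at chr8:75109259-75109508 (plus strand), Mcm6 at chr1:128359706-128359955 (minus strand), Mki67 at chr7:135716380-135716629 (minus strand), Cdk1 at chr10:69352913-69353162 (minus strand), Ccnb2 at chr9:70421555-70421804 (minus strand), Cdc20 at chr4:118437344-118437593 (minus strand) and Plk1 at chr7:122159185-122159434 (plus strand).
Mcm5: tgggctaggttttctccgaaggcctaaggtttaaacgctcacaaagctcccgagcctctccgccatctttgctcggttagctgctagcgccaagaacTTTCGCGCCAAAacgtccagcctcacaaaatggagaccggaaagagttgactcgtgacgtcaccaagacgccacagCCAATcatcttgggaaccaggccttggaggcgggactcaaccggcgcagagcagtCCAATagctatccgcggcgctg
Mcm6: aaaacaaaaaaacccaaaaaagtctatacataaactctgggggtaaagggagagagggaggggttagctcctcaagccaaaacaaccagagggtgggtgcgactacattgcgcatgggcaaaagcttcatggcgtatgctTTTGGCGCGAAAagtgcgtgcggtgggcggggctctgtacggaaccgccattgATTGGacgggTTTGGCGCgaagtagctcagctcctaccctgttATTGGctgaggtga
Mki67: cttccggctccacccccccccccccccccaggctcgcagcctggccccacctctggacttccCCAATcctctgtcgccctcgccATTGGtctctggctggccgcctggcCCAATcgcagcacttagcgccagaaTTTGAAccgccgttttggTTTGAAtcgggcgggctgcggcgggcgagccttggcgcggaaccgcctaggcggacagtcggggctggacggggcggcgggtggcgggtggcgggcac
Cdk1: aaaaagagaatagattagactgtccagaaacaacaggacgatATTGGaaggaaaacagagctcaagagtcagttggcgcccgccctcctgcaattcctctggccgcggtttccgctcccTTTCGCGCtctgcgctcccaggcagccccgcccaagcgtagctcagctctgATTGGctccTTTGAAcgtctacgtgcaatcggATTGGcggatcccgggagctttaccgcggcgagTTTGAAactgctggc
Ccnb2: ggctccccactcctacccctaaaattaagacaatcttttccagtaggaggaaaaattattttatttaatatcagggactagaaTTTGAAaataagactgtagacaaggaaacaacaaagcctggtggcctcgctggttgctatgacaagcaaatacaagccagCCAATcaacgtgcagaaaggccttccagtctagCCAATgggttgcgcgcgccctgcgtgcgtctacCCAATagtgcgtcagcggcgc
Cdc20: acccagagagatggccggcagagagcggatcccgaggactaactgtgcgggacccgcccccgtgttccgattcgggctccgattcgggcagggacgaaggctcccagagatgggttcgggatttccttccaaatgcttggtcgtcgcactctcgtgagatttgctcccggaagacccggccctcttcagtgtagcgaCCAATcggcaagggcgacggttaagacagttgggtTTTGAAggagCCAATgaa
Plk1: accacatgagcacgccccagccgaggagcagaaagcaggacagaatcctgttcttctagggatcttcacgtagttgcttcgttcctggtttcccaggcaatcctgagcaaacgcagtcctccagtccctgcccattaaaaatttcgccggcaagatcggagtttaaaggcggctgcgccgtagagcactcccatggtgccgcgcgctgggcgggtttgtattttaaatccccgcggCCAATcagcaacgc

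Mcm5 and Mcm6, which encode subunits of the helicase, each held a pair of E2F matches that overlap on opposite strands, beginning 153 and 149 bases before the start in Mcm5 and 110 and 106 bases before it in Mcm6. Mcm6 had a further E2F match 47 bases before the start. Ccnb2, the gene of cyclin B2, had CCAAT boxes 87, 54 and 21 bases before its start. In Cdk1, the mitotic kinase, an E2F match stood beside 2 CHR elements and 3 CCAAT boxes. Of the 43 genes, 35 had a promoter entry. The E2F letters occurred in 5 of 16 replication promoters (31.2%: Cdc6, Mcm5, Mcm6, Mcm7 and Uhrf1) and 1 of 19 mitosis promoters (5.26%), against 1.86% of the 32851 windows in the table. CHR letters occurred in 3 of 16 (18.8%) and 8 of 19 (42.1%), against 17.1% of all windows. CCAAT occurred in 10 of 16 (62.5%) and 17 of 19 (89.5%), against 33.8%. A match to these letters is a description of the sequence and does not show that a factor binds there.

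By replicate number there are 3 sets of libraries, numbered 1 to 3, 4 to 6 and 7 to 9, each with 3 control and 3 dDAVP libraries. The labels do not say what the sets are, and they were recognised from expression in earlier work on these data, so levels by set are a description. Counted reads came to 22.2 to 105.9 M per library, and 10282 to 12953 genes were detected, the fewest in dDAVP 6. Ribosomal protein genes took 18.9 to 26.2% of counts in set 1 to 3, 0.792 to 9.37% in set 4 to 6 and 8.98 to 14.7% in set 7 to 9. Rn45s, the ribosomal RNA precursor, took 0.213 to 3.04% of counts in every library of set 7 to 9 and at most 0.00682% in any other, and its part in the differences of that set was not tested. Levels are given as normalised CPM, counts relative to a library total scaled by TMM, a method that takes most genes as equal between libraries. That scaling weighs unevenly: dDAVP 6 had a scaled total 0.306 times its counted total, while in dDAVP 8 and dDAVP 9 it was 3.15 and 2.75 times the counted total. The floor of 3 counts was 0.0143 to 0.359 normalised CPM and covers counting error only. Principal cell markers, 11 genes, summed to 3162 to 5450 normalised CPM with dDAVP against 1436 to 1669 in control in set 1 to 3. The sums were 1076 to 1704 against 400.4 to 569 normalised CPM in set 4 to 6, and 417 to 3101 against 251 to 524 in set 7 to 9, where the ranges overlapped. Sums of 6 intercalated cell markers were 1.79 to 2.43 normalised CPM in control 1 to 3 and 4.35 to 14.4 in dDAVP 1 to 3, and those of 6 proximal tubule markers 6.17 to 8.23 and 2.82 to 5.26, so both separated the groups of that set. In the other sets they reached 22.9 and 12.1 normalised CPM at most, with Slc5a2 at 0 throughout, and their part in the results was not tested. Fibroblast and endothelial marker sums reached 1.09 normalised CPM at most, with Pdgfra, Pecam1, Cdh5 and Kdr at 0 throughout. Summed blood cell markers reached 31.9 normalised CPM, with Hbb-bs and Hba-a1 at 0. Nothing in the labels says that replicates are separate cultures, so p-values measure the spread between these samples.

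**Figure D1:**
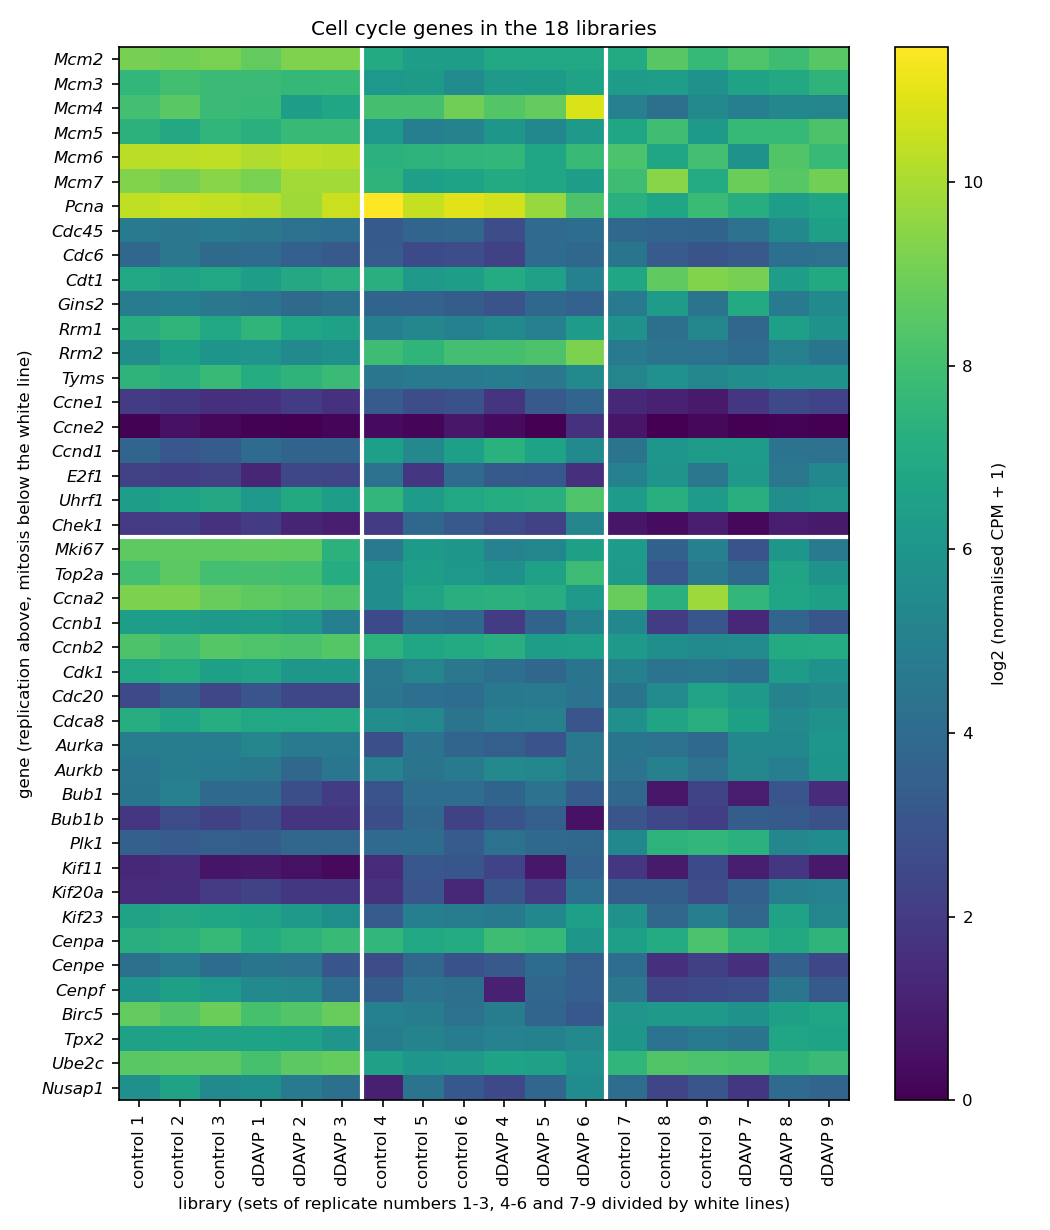
Level of each of the 43 genes (vertical axis) in each of the 18 libraries (horizontal axis), as colour on a log2 scale of normalised CPM plus 1. White lines divide the sets of replicate numbers and the 2 lists, and the columns of set 1 to 3 are brighter for most mitosis genes than those of the other sets.

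The first question was whether a day of dDAVP moved the cell cycle genes. Across all 18 libraries, 0 of the 42 genes tested passed an adjusted p of 0.05 (edgeR quasi-likelihood test, Benjamini-Hochberg), as did 0% of the 10121 genes tested. With the set as a term the count was again 0 of 42, against 0.0723% of 11066 genes. DESeq2 called 0 members in either design, and limma voom with sample quality weights called only Cenpf with the set as a term (log2 fold change -1.13, adjusted p 0.0321), where it called 1.1% of all genes. Kif20a, a kinesin of the late spindle and of cytokinesis, was the 1 gene with an unadjusted p under 0.05 in both edgeR designs, where 2.15% and 6.14% of all genes had one. Its log2 fold change with the set as a term was 1.13 (SE 0.41), with an edgeR adjusted p of 0.808. The median log2 fold change in that design was 0.15 over the replication genes and -0.05 over the mitosis genes, beside 0.02 over all genes. Less the median of all genes these were 0.13 and -0.08, and single libraries moved them, to 0.02 for replication without dDAVP 6 and to 0.04 for mitosis without control 7. With voom and sample quality weights the replication value turned to -0.10. In bulk RNA, fewer dividing cells and less RNA per dividing cell cannot be told apart, here or in any value that follows.

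Mki67 and Ccnd1 overlapped between control and dDAVP in every set. Mki67, the Ki-67 protein of cycling nuclei, stood at 394, 389 and 393 normalised CPM in control 1 to 3 and 410.3, 397 and 165 in dDAVP 1 to 3. Its levels were 26.4, 74.8 and 65.6 in control 4 to 6 and 32.9, 37.2 and 91.9 normalised CPM with dDAVP. Libraries 7 to 9 had 81.1, 10.7 and 31.1 in control and 6.88, 65.5 and 25.2 normalised CPM with dDAVP. In set 1 to 3, 1 library, dDAVP 3, stood far below the rest. The log2 fold change with the set as a term was -0.22 (SE 0.40), with an edgeR adjusted p of 0.967.

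Ccnd1, cyclin D1, which links growth signals to the cell cycle, varied less by treatment than by set. Its normalised CPM were 12.6, 7.59 and 9.101 in control and 15.3, 11.97 and 11.8 with dDAVP in set 1 to 3. They were 89.1, 41.3 and 88.5 and 161, 99.9 and 43.96 in set 4 to 6, and 20.5, 63.98 and 77.7 and 79.2, 19.9 and 18.9 in set 7 to 9. The lowest 3 libraries of set 7 to 9 were control 7, dDAVP 8 and dDAVP 9, so that the groups were mixed there. The log2 fold change with the set as a term was 0.15 (SE 0.36), with an edgeR adjusted p of 0.975.

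**Figure D2:**
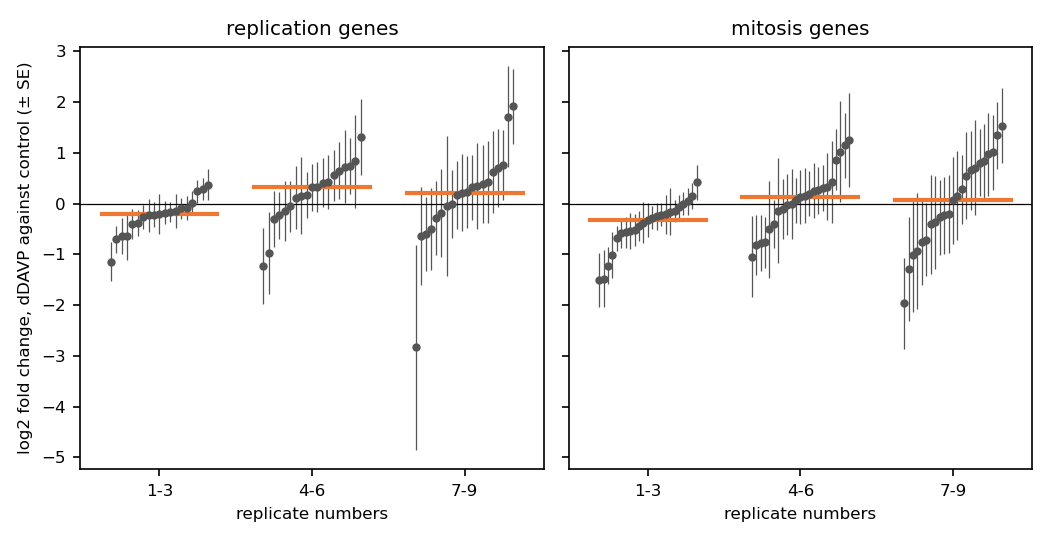
Log2 fold change of dDAVP against control (vertical axis, bars are SE) for each gene within each set of replicate numbers (horizontal axis), replication genes left and mitosis genes right, sorted within a set. Orange lines are medians, which lie at -0.20 and -0.31 in set 1 to 3 and at 0.32 and 0.13 in set 4 to 6.

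Within set 1 to 3 the genes lay lower with dDAVP more often than higher. Of 42 log2 fold changes, 34 were negative (15 of 19 replication genes and 19 of 23 mitosis genes), where 50.6% of all 8991 genes were. The medians were -0.20 for replication and -0.31 for mitosis genes, beside -0.01 over all genes. No gene passed (0 of 42, against 0.456% of all genes, edgeR adjusted p 0.283 or higher), and DESeq2 called 0 as well, against 1.37% of all genes. With the replicate number as a block 3 genes passed, named further on. Unadjusted p-values under 0.05 were found for 7 genes, all lower, and 5.05% of all genes were lower at that p. They were Mcm4 and Gins2 of the replication list, and Ccna2, Bub1, Kif11, Cenpf and Nusap1 of the mitosis list.

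Mcm4, a helicase subunit, had 266, 373 and 223 normalised CPM in control 1 to 3 and 212, 81.6 and 105 in dDAVP 1 to 3. Its log2 fold change was -1.14 (SE 0.39), with an edgeR adjusted p of 0.357. In normalised CPM the 3 dDAVP libraries were below all 3 controls, dDAVP 1 only just. Gins2, a subunit of the GINS complex that joins the moving helicase, had 27.9, 29.8 and 23.4 normalised CPM in control and 19.6, 14.5 and 17.7 with dDAVP, again without overlap. The difference came to a log2 fold change of -0.70 (SE 0.27).

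Ccna2, cyclin A2, which serves both S phase and entry into mitosis, had 600.4, 589 and 448 normalised CPM in control 1 to 3 and 396, 364 and 304 in dDAVP 1 to 3. In these levels the groups did not overlap, and the log2 fold change was -0.68 (SE 0.25) with an edgeR adjusted p of 0.385. Cenpf, a large kinetochore protein made in G2, had 63.3, 92.2 and 69.4 normalised CPM in control and 43.7, 38.7 and 16.7 with dDAVP. It too did not overlap, dDAVP 3 being the lowest, and its log2 fold change of -1.22 (SE 0.37) had the smallest adjusted p of the list (0.283, edgeR). Bub1, a kinase of the spindle checkpoint, had 20.8, 31.00 and 13.9 normalised CPM in control and 14.5, 5.74 and 3.04 with dDAVP. There dDAVP 1 lay within the controls, and the log2 fold change was -1.50 (SE 0.54). Kif11, the kinesin that pushes the spindle poles apart, was near the bottom of the range at 1.41, 1.74 and 0.586 and 0.686, 0.423 and 0.226 normalised CPM, with a log2 fold change of -1.48 (SE 0.56).

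Groups without overlap, all lower with dDAVP, were found for 6 of 42 genes in this set (Ccna2, Cdc45, Cenpf, Gins2, Kif23 and Mcm4), which is 14.3%, where 6.93% of all genes were lower without overlap. No member was higher without overlap, where 7.47% of all genes were. These counts use normalised CPM. With library totals dDAVP 1 was above at least 1 control for Ccna2, Cdc45, Gins2, Kif23 and Mcm4. Of the 6 genes only Cenpf then stayed without overlap. Several genes near the top of the list in level gave small values: Mcm6 -0.17 (SE 0.20), Pcna -0.26 (SE 0.24), Ube2c -0.14 (SE 0.21) and Cenpa -0.06 (SE 0.23) as log2 fold changes. Ccnb2 overlapped, with 307, 251 and 352 normalised CPM in control and 316, 289 and 345 with dDAVP.

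Which genes of set 1 to 3 pass depended on the fit and on which libraries it held. With limma voom and sample quality weights 6 genes passed (Bub1, Ccna2, Cenpf, Gins2, Mcm4 and Nusap1, all lower), where 4.22% of all genes passed as lower. Without dDAVP 1 edgeR called 5 (Bub1, Cenpf, Chek1, Mcm4 and Nusap1, all lower), where 4.46% of all genes were. With the replicate number as a block it called 3 (Bub1, Cenpf and Mcm4, all lower, edgeR adjusted p of 0.00674, 0.0128 and 0.0268), where 0.611% of all genes were, although within a set the numbers were not treated as pairs. The median of the mitosis genes less that of all genes was -0.31 with all 6 libraries, -0.66 without dDAVP 1 and -0.21 without dDAVP 3. That of the replication genes was -0.19, and -0.12 without dDAVP 3. In dDAVP 3 lay the lowest level of 14 of the 23 mitosis genes, and in control 2 the highest of 11. Over the 43 genes, deviation from the set mean went with transcript length at a Spearman rho of -0.53 in dDAVP 3 and 0.37 in control 2, so that long transcripts such as Cenpf and Mki67 were low in dDAVP 3. Length differences of this kind also ran over all genes in dDAVP 3 (rho -0.32). In dDAVP 1 the trend was the opposite, at 0.33 over the 43 genes and 0.32 over all genes, and in control 2 it was 0.15 over all genes. These rhos are across genes of single libraries, and their part in the fold changes was not tested.

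In set 4 to 6, 0 of 42 genes passed (edgeR, 0% of 10387 genes; 0 with DESeq2), and 0 had an unadjusted p under 0.05, where 4.61% of all genes had one. The members with the widest differences were Mcm4, Pcna, Kif20a and Kif23. Mcm4 had 268, 270.2 and 501 normalised CPM in control 4 to 6 and 340.2, 421 and 1818 in dDAVP 4 to 6. Its log2 fold change of 1.31 (SE 0.76) came from dDAVP 6 alone, and without that library it was 0.04 (SE 0.42). Pcna, the sliding clamp of the replicative polymerases, went the other way, from 2842, 1417 and 2001 normalised CPM in control to 1640.2, 845 and 304 with dDAVP. Here control 5 lay below dDAVP 4, so the groups overlapped, and the log2 fold change was -1.23 (SE 0.75), or -0.83 (SE 0.52) without dDAVP 6.

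Kif23, a kinesin of the central spindle, had 9.02, 29.9 and 27.4 normalised CPM in control 4 to 6 and 23.6, 40.6 and 88.8 in dDAVP 4 to 6. Kif20a had 2.12, 7.06 and 1.48 in control and 6.82, 3.05 and 17.4 normalised CPM with dDAVP. In both genes dDAVP 6 was the highest library in normalised CPM, and its scaled total was 0.306 times its counted total. Without dDAVP 6 the log2 fold changes went from 1.15 to 0.40 and from 1.26 to 0.28. With library totals dDAVP 6 was not the highest. Kif23 was then at 27.2 CPM in dDAVP 6 and 39.8 in dDAVP 5, and Kif20a at 5.31 in dDAVP 6 and 8.63 in control 5. Rrm2, the regulated subunit of ribonucleotide reductase, was the 1 gene higher with dDAVP without overlap, at 241, 183 and 265 against 273, 306 and 594 normalised CPM (5.38% of all genes were). With library totals Rrm2 overlapped, at 179 and 182 CPM in dDAVP 4 and dDAVP 6 against 224 and 245 in control 5 and control 6. Cdk1 was the 1 gene lower without overlap, at 23.1, 35.8 and 22.4 against 17.2, 12.7 and 20.4 normalised CPM (4.38% of all genes were). Cdk1 stayed without overlap with library totals.

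The medians of set 4 to 6, 0.32 for replication and 0.13 for mitosis genes, moved with the scaling of the libraries and with 1 library, dDAVP 6. With library totals alone they were -0.32 and -0.31, beside -0.38 over all genes. Taken against the median of all genes, the replication median was 0.36 with TMM and 0.07 without dDAVP 6, and the mitosis median 0.16 and 0.05.

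In set 7 to 9, 0 of 43 genes passed (edgeR, 0% of 11367 genes; 0 with DESeq2), and 2 had an unadjusted p under 0.05, where 5.19% of all genes had one. Cdc45, which travels with the helicase at the fork, had 13.7, 12.2 and 12.1 normalised CPM in control 7 to 9 and 18.6, 41.3 and 90.4 in dDAVP 7 to 9. In normalised CPM all 3 dDAVP libraries were above the controls, which were nearly equal. With library totals the CPM of Cdc45 were 31.64, 16.28 and 13.96 in control and 24.23, 130.4 and 248.6 with dDAVP. There dDAVP 7 lay below control 7, so the lack of overlap depended on the scaling. The log2 fold change of Cdc45 with TMM was 1.92 (SE 0.74) with an edgeR adjusted p of 0.938. Ccna2 had 442, 157 and 881 normalised CPM in control and 194, 111 and 92.2 with dDAVP, and overlapped because control 8 lay below dDAVP 7. Its log2 fold change was -1.97 (SE 0.89). Kif20a, at 9.38, 9.57 and 5.52 and 10.5, 29.3 and 33.1 normalised CPM, was higher with dDAVP without overlap, as were Aurka, Ccne1, Cdc45 and Mcm3, 5 of 43 genes where 4.56% of all genes were. With library totals dDAVP 7 lay below control 7 for Kif20a, Ccne1, Cdc45 and Mcm3, and only Aurka stayed without overlap. The share of all genes without overlap with library totals is not given. In normalised CPM no gene was lower without overlap, where 4.43% of all genes were.

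Ccne2, cyclin E2, had the largest log2 fold change in this set (-2.83 (SE 2.02)), but it rests on few reads, 59, 1 and 12 in control 7 to 9 and 0, 17 and 6 in dDAVP 7 to 9. It was too low to be tested in the other dDAVP comparisons and between sets, and in the test of a difference between sets in the dDAVP effect its edgeR adjusted p was 0.949. The medians, 0.22 for replication and 0.07 for mitosis genes, became 0.84 and 0.66 with library totals, beside 0.54 over all genes. Against the median of all genes, the mitosis median was 0.09, and it lay between -0.30 without control 8 and 0.70 without dDAVP 7. The replication median was 0.25, from -0.02 without control 8 to 0.50 without dDAVP 7. A test of whether the dDAVP effect differed between the sets gave 0 of 43 genes (0% of 11710 genes) with edgeR and 0 with the DESeq2 likelihood ratio test. Unadjusted p-values under 0.05 were found for Cdc45, Mcm4, Cdk1 and Ccna2 (4 of 43, where 6.99% of all genes had one).

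In set 7 to 9 libraries of the same treatment differed widely from each other. Mki67 was 81.1 normalised CPM in control 7 and 65.5 in dDAVP 8, but 10.7 in control 8 and 6.88 in dDAVP 7. Top2a, the topoisomerase that untangles chromosomes before they part, had 73.1, 7.55 and 23.2 normalised CPM in control and 13.3, 104 and 58.4 with dDAVP. Its low libraries, control 8 and dDAVP 7, were those with the lowest Mki67. Plk1, a kinase that drives mitotic entry and exit, had 40.1, 168 and 194 normalised CPM in control and 157, 38.7 and 47.5 with dDAVP. Cdc20, the activator of the anaphase-promoting complex, had 20.1, 45.9 and 102 and 73.4, 34.4 and 41.1 normalised CPM. In normalised CPM control 7, dDAVP 8 and dDAVP 9 were the lowest for both genes, although control 7 and dDAVP 8 were the highest for Mki67. The scaled totals of these 3 libraries were 2.32, 3.15 and 2.75 times their counted totals, the highest of all libraries. With library totals they stayed the lowest for Plk1. Cdc20 then had CPM of 46.5, 61.3 and 117.8 in control and 95.6, 108.5 and 113.1 with dDAVP. Its lowest libraries were thus control 7, control 8 and dDAVP 7. Cdt1, the licensing factor, had 108, 409 and 633 normalised CPM in control and 556, 85.7 and 124 with dDAVP. It was lowest in dDAVP 8 and in control 7, with library totals as well.

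Transcript length went with these differences as well. Over the 43 genes, the deviation of a library from its set mean had a Spearman rho with transcript length of 0.55 in control 7, 0.49 in dDAVP 8, -0.47 in control 8 and -0.45 in dDAVP 7. Over all genes it had the same signs and was smaller, at 0.10, 0.18, -0.23 and -0.12 in these libraries. In control 9 and dDAVP 9 it was -0.08 and -0.03 over the 43 genes, and -0.09 and 0.145 over all genes. Set 4 to 6 had such trends too, at -0.47, 0.13 and -0.05 in control 4 to 6 and -0.295, 0.03 and 0.40 in dDAVP 4 to 6 over the 43 genes. Over all genes these were -0.13, -0.14 and -0.05 in control and -0.07, 0.05 and 0.175 with dDAVP. By the lengths behind the deposited FPKM, Mki67 and Top2a have transcripts of 10072 and 5215 bases, and Plk1, Cdc20 and Cdt1 of 2202, 1783 and 2190 bases. The part of length in the differences was not tested.

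**Figure D3:**
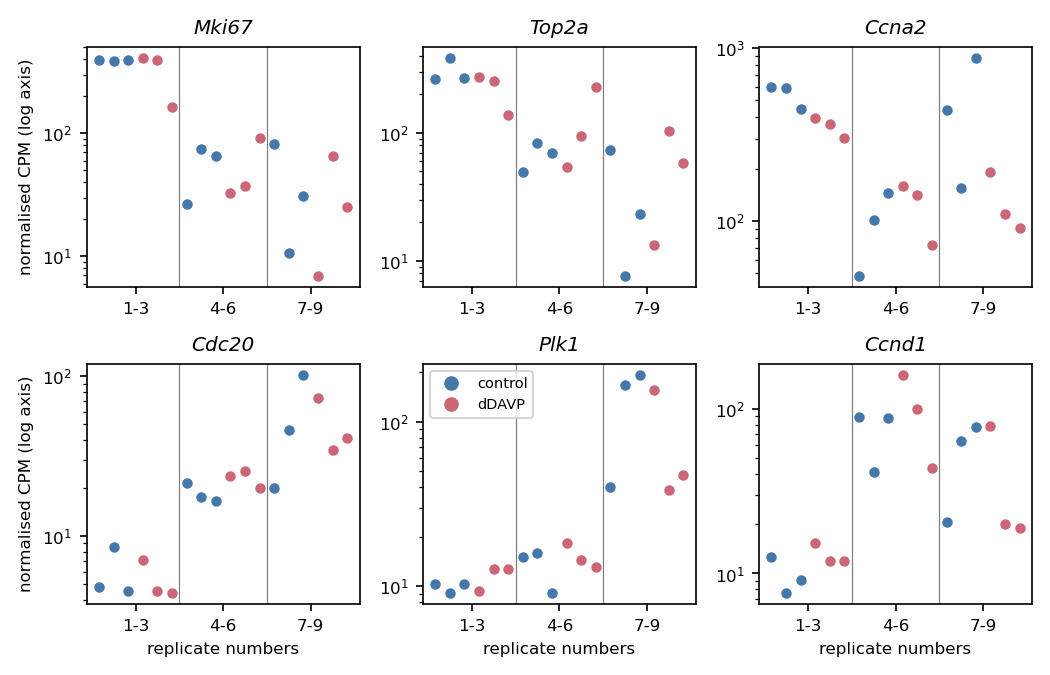
Normalised CPM on a log axis (vertical) of Mki67, Top2a, Ccna2, Cdc20, Plk1 and Ccnd1, with a point for each of the 18 libraries grouped by replicate number (horizontal), control blue and dDAVP red. Mki67 spans 165 to 410.3 in set 1 to 3 and 6.88 to 81.1 in set 7 to 9, while Plk1 spans 9.07 to 12.7 and 38.7 to 194.

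The sets themselves differed far more than the treatments. Sets 4 to 6 and 7 to 9 were each compared with set 1 to 3, with treatment as a term and 6 libraries per set. Both comparisons use set 1 to 3, so their values stand side by side and are not independent. In set 4 to 6, 30 of 42 genes passed, 8 higher and 22 lower, where 52.8% of the 11066 genes passed, 31.8% higher and 21% lower (edgeR). Replication genes were split, with 6 higher and 8 lower, and mitosis genes were mostly lower, with 2 higher and 14 lower. Their median log2 fold changes were -0.82 and -1.53, beside 0.56 over all genes. For set 7 to 9, 28 of 42 passed, 7 higher and 21 lower, where 61.4% of genes passed, 38.1% higher and 23.4% lower. The medians were -0.91 for replication and -0.80 for mitosis genes, beside 0.62 over all genes.

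The scaling decides the direction of the comparison of set 7 to 9. With library totals 19 of 42 genes passed, 16 higher and 3 lower, where 57.6% of all genes were higher and 7.38% lower. Fold changes of 15 genes turned from negative to positive, and the medians were 0.53 and 0.48, beside 2.06 over all genes. Less the median of all genes, the replication median was -1.53 with TMM and with totals. So 33 of 42 genes lay below the median gene in set 7 to 9 and 31 of 42 in set 4 to 6. The genes named next as higher or lower passed in the same direction with TMM, with the size factors of DESeq2 (RLE) and with library totals, unless it is said otherwise. There were 5 such genes higher and 19 lower in set 4 to 6, and 7 higher and 3 lower in set 7 to 9. No share of all genes that pass with all 3 scalings is given, so these counts only mark which genes are named below.

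**Figure D4:**
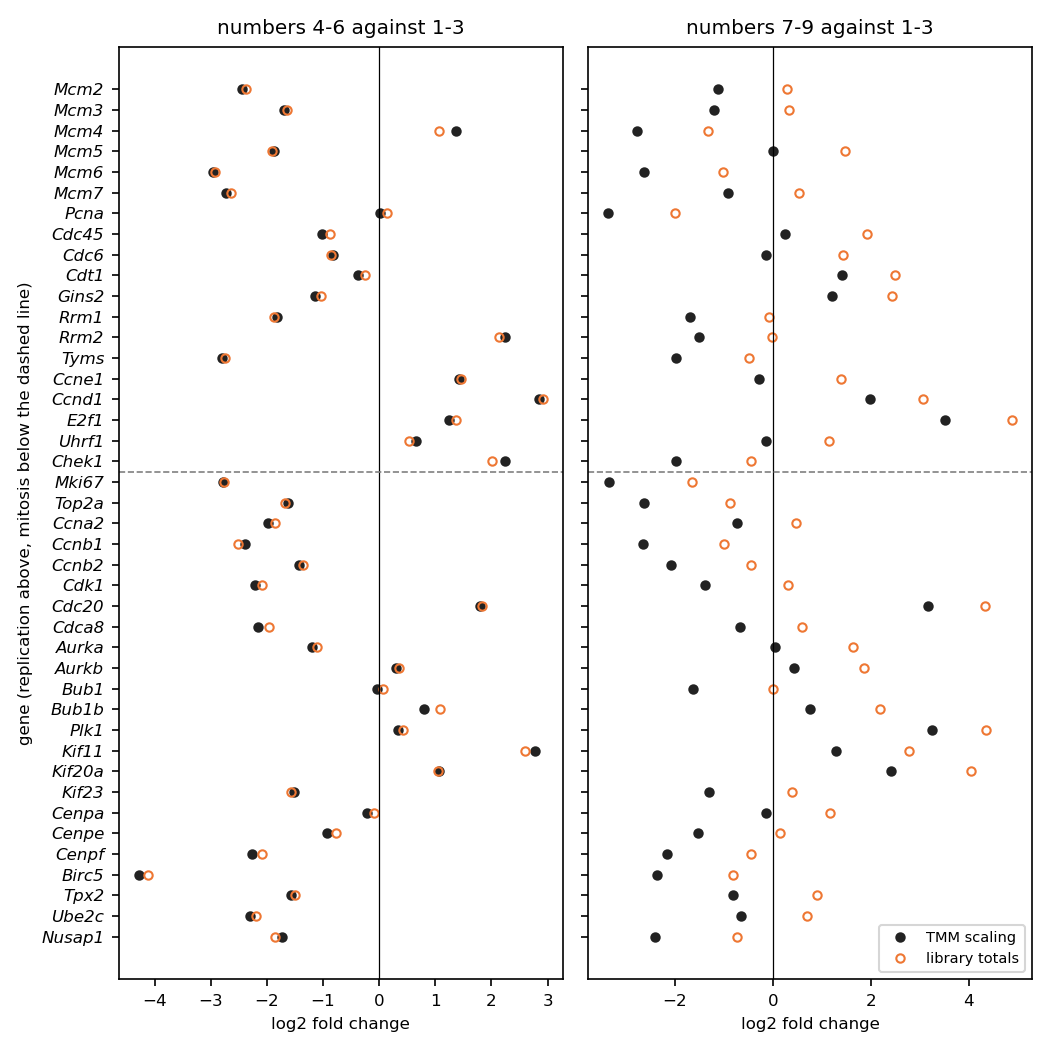
Log2 fold change (horizontal axis) of each gene (vertical axis) in set 4 to 6 (left) and set 7 to 9 (right) against set 1 to 3, with TMM scaling (filled) and with library totals (open). The open points of set 7 to 9 lie to the right of the filled ones, which moves the replication median from -0.91 to 0.53.

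Among the helicase genes, Mcm2, Mcm3, Mcm5, Mcm6 and Mcm7 were lower in set 4 to 6. Mcm6 fell furthest, from 1107 to 1319 over the libraries of set 1 to 3 to 106 to 216 normalised CPM in set 4 to 6. That was a log2 fold change of -2.96 (SE 0.40) with an edgeR adjusted p of 1.88e-06. Its range in set 7 to 9 was 58.3 to 324 normalised CPM, a log2 fold change of -2.63 (SE 0.39) with TMM, and -1.02 with library totals, which did not pass. Mcm2 went from 426 to 615 normalised CPM to 84.7 to 129 in set 4 to 6, a log2 fold change of -2.45 (SE 0.33). The log2 fold change of Mcm2 between set 7 to 9 and set 1 to 3 was -1.11 (SE 0.31) with TMM, but 0.29 with library totals. Mcm7 had -2.74 (SE 0.39) in set 4 to 6 and -0.91 (SE 0.37) in set 7 to 9 as log2 fold changes, the second turning to 0.53 with library totals.

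Mcm4 did not follow its partners. Its levels were 81.6 to 373 normalised CPM in set 1 to 3, 268 to 1818 in set 4 to 6 and 18.1 to 41.6 in set 7 to 9. The log2 fold change was 1.37 (SE 0.50) in set 4 to 6 (edgeR adjusted p 0.0261) and -2.77 (SE 0.51) in set 7 to 9 (edgeR adjusted p 7.55e-05). Only the fall in set 7 to 9 was called with all 3 scalings. The 6 subunits form 1 ring, and their proportions within a library need no scaling. Mcm4 made up 1.93 to 9.77% of the summed FPKM of Mcm2 to Mcm7 in set 1 to 3, 26.2 to 71.9% in set 4 to 6 and 0.940 to 4.45% in set 7 to 9. FPKM are counts scaled by transcript length and counted reads, so they compare genes per length. The highest share was that of dDAVP 6, and without it set 4 to 6 reached from 26.2 to 47.3%, still above both other sets. Mcm6 fell from 36.5 to 42.3% of the sum in set 1 to 3 to between 10.6 and 25.5% in set 4 to 6, and spread from 4.83 to 35.0% in set 7 to 9. Mcm7 made up 22.0 to 34.0%, 4.99 to 26.0% and 21.1 to 53.6% in the 3 sets.

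**Figure D5:**
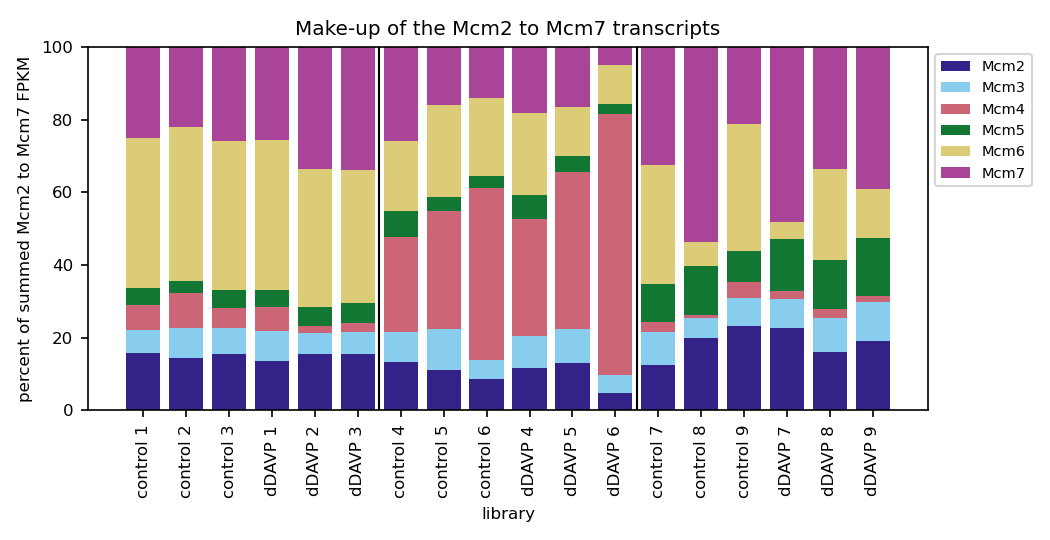
Share of each subunit in the summed FPKM of Mcm2 to Mcm7 (vertical axis, percent) in each library (horizontal axis), with lines between the sets. Mcm4 takes 26.2 to 71.9% in set 4 to 6 and at most 9.77% in every library of both other sets.

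Pcna had the highest mean normalised CPM of the list. It ranged over 919 to 1497 normalised CPM in set 1 to 3, 304 to 2842 in set 4 to 6 and 85.1 to 223 in set 7 to 9. The first pair overlapped widely (log2 fold change 0.02 (SE 0.38)), while set 7 to 9 lay wholly below (-3.35 (SE 0.42), edgeR adjusted p 1.23e-06, and -1.99 with library totals). As a share of all counts on the replication genes, Pcna made up 18.7 to 27.5% in set 1 to 3, 7.75 to 63.2% in set 4 to 6, where dDAVP 6 had the least, and 4.36 to 11.4% in set 7 to 9.

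The genes that make deoxynucleotides differed among themselves. Tyms, thymidylate synthase, went from 135 to 228 normalised CPM in set 1 to 3 to 21.4 to 44.3 in set 4 to 6, a log2 fold change of -2.80 (SE 0.32) with an edgeR adjusted p of 1.64e-07. Its log2 fold change from set 1 to 3 to set 7 to 9 was -1.96 (SE 0.31) with TMM, which library totals did not call. Rrm1, the large subunit of ribonucleotide reductase, was lower in set 4 to 6 (-1.82 (SE 0.42)), whereas Rrm2, its partner, was higher (2.25 (SE 0.35)). Rrm2 ranged over 44.4 to 91.3 normalised CPM in set 1 to 3, 183 to 594 in set 4 to 6 and 15.2 to 31.1 in set 7 to 9. The ratio of Rrm2 to Rrm1 FPKM, which needs no scaling, was 0.632 to 1.06 in set 1 to 3, 8.63 to 18.1 in set 4 to 6 and 0.653 to 2.15 in set 7 to 9. Every library of set 4 to 6 thus had a ratio above all others.

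Of the genes that control the start of S phase, Ccnd1 was higher in both sets. It ranged over 7.59 to 15.3 normalised CPM in set 1 to 3 against 41.3 to 161 in set 4 to 6 and 18.9 to 79.2 in set 7 to 9, without overlap. With library totals set 4 to 6 overlapped with set 1 to 3, as dDAVP 6 had 13.45 CPM and dDAVP 1 had 15.08. Set 7 to 9 stayed above. The log2 fold changes were 2.85 (SE 0.47) and 1.99 (SE 0.45), with edgeR adjusted p of 2.47e-05 and 0.000686. E2f1, the activating E2F factor, was higher in set 7 to 9, at 22.2 to 73.5 normalised CPM against 1.33 to 4.66, a log2 fold change of 3.51 (SE 0.54). Cdt1 and Gins2 were higher in set 7 to 9 as well (1.42 (SE 0.48) and 1.21 (SE 0.43)), and their ranges overlapped with set 1 to 3. Chek1, a kinase of the replication checkpoint, was higher in set 4 to 6 (2.24 (SE 0.64)), where dDAVP 6 alone had 36.5 normalised CPM and the others 3.12 to 13.2.

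The largest fall of the list in set 4 to 6 was that of a mitosis gene. Birc5, survivin, a member of the chromosomal passenger complex, ranged over 276 to 478 normalised CPM in set 1 to 3 and 7.905 to 32.2 in set 4 to 6. Its log2 fold change was -4.28 (SE 0.40), with an edgeR adjusted p of 9.42e-09. Set 7 to 9 lay between, at 59.3 to 106 normalised CPM (-2.35 (SE 0.37) with TMM, and -0.81 with library totals, which did not pass). With library totals its CPM of 77.12 to 292.1 overlapped set 1 to 3, at 220.4 to 383.5. Cdca8, which encodes borealin of the same complex, fell in set 4 to 6 too (-2.16 (SE 0.40)), but Aurkb, its kinase, gave 0.30 (SE 0.34) and did not pass. Mki67 fell in both sets, by 2.79 on the log2 scale in set 4 to 6 and by 3.34 in set 7 to 9 (by 1.66 with library totals). It ranged over 165 to 410.3 normalised CPM in set 1 to 3, 26.4 to 91.9 in set 4 to 6 and 6.88 to 81.1 in set 7 to 9.

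Ccna2 was lower in set 4 to 6 (-1.97 (SE 0.47)). Ccnb1 and Ccnb2, the B cyclins of mitotic entry, and their kinase Cdk1 were lower in set 4 to 6 as well, with log2 fold changes of -2.39 (SE 0.64), -1.44 (SE 0.36) and -2.21 (SE 0.42). The log2 fold changes of set 7 to 9 against set 1 to 3 were -2.64 (SE 0.64), -2.07 (SE 0.36) and -1.38 (SE 0.41) with TMM. Library totals called none of the 3, and Cdk1 then turned to 0.31. Ccnb2 ranged over 251 to 352 normalised CPM in set 1 to 3, 85.6 to 172 in set 4 to 6 and 42.95 to 134 in set 7 to 9. Ube2c, the ubiquitin-conjugating enzyme of the anaphase-promoting complex, was lower in set 4 to 6, at 55.3 to 99.9 against 281 to 430.3 normalised CPM (log2 fold change -2.31 (SE 0.31)).

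Cdc20 went against these genes. It rose from 4.397 to 8.59 normalised CPM in set 1 to 3 to 16.5 to 25.6 in set 4 to 6 and 20.1 to 102 in set 7 to 9. The log2 fold changes were 1.80 (SE 0.38) and 3.16 (SE 0.40), with edgeR adjusted p of 0.000462 and 1.45e-06. Plk1 ranged over 9.07 to 12.7 normalised CPM in set 1 to 3 and 9.09 to 18.4 in set 4 to 6, a log2 fold change of 0.33 (SE 0.41) that did not pass. It rose to 38.7 to 194 normalised CPM in set 7 to 9 (3.24 (SE 0.44), edgeR adjusted p 3.26e-06). Kif20a was higher in set 7 to 9 (2.41 (SE 0.52)), and Kif11 in set 4 to 6 (2.77 (SE 0.72)), where its levels still reached only 11.4 normalised CPM, in dDAVP 6. The count ratio of Plk1 to Mki67 within a library was 0.0226 to 0.0774 in set 1 to 3, 0.1385 to 0.573 in set 4 to 6 and 0.495 to 22.9 in set 7 to 9. No scaling of libraries changes this ratio, and every library of set 7 to 9 except control 7 lay above set 4 to 6. For dDAVP 8 the margin was small, 0.591 against 0.573 in control 4. The ratio does not allow for transcript length, 2202 bases for Plk1 and 10072 for Mki67, whose part in it was not tested. Cenpa, the centromeric histone H3, had log2 fold changes of -0.21 (SE 0.36) and -0.14 (SE 0.36) with TMM, neither of which passed, but library totals called it higher in set 7 to 9.

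Groups without overlap between sets were common. In set 4 to 6, 18 of 42 genes were lower than set 1 to 3 in every library (42.9%, where 16.6% of all genes were) and 3 were higher (Ccnd1, Cdc20 and Rrm2, where 17.7% of all genes were). Compared in the same way, 14 genes of set 7 to 9 were lower (33.3%, where 16.4% of all genes were) and 5 higher (Ccnd1, Cdc20, E2f1, Kif20a and Plk1, where 22.6% of all genes were). Those counts use TMM levels. With library totals Aurka, Cdc45, Cdk1 and Gins2 of the lower genes in set 4 to 6 overlapped with set 1 to 3. Ccnd1 and Cdc20 of the higher genes in set 4 to 6 then overlapped too. Of the lower genes in set 7 to 9 only Pcna stayed without overlap, at 144.3 to 361.7 against 594.9 to 1216 CPM. The higher genes in set 7 to 9 all stayed without overlap. No share of all genes is given for library totals. The ratio of summed mitosis to summed replication normalised CPM, which the scaling cannot change, was 0.457 to 0.639 in set 1 to 3, 0.186 to 0.388 in set 4 to 6 and 0.485 to 1.15 in set 7 to 9, so that sets 1 to 3 and 4 to 6 did not overlap. Single genes weigh on this ratio. Pcna made up 18.7 to 27.5% of replication counts in set 1 to 3 and 7.75 to 63.2% in set 4 to 6. The ratio without Pcna is not given, so the gap between these sets is not a shift of whole lists. Ccna2 alone made up 39.4% of mitosis counts in control 9 and 30.7% in control 7, against at most 18.45% in any library of set 1 to 3.

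Per length, the order of the members also changed between sets. By median FPKM over the 6 libraries, the highest in set 1 to 3 were Pcna at 855, Mcm6 at 333, Ube2c at 310 and Mcm7 at 233. In set 4 to 6 Pcna was at 1043, followed by Mcm4 at 104, Rrm2 at 93.0 and Cenpa at 91.5. In set 7 to 9 Ube2c led at 463, before Mcm7 at 322, Pcna at 209 and Cdt1 at 202. Ccne2 was the lowest in every set, at 0.020 to 0.058 FPKM. Mki67 is long, and its 29.1 FPKM in set 1 to 3 placed it below Ccnb2 at 147 and Birc5 at 127, although in counts it was on a par with both.

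Genes of the same pathways outside the list were taken from lists chosen by function. The 5 comparisons of dDAVP with control called 0 of the 40 other replication genes and 0 of the 40 other mitosis genes (edgeR). They also called 0 of the 20 kinase inhibitors and growth arrest genes and 0 of the 26 Rb, E2F and G1 kinase genes. Unadjusted p-values under 0.05 were found for 0 to 6 genes of a list. The most were 6 of 39 other replication genes in set 1 to 3, where 946 of all 8991 genes had one. In the other comparisons 2.15 to 6.14% of all genes had one. In set 1 to 3 all 4 lists had more negative than positive log2 fold changes, where 50.6% of all genes were negative. The counts were 30 of 39 other replication genes and 32 of 38 other mitosis genes (median -0.26 in each), 11 of 14 kinase inhibitors and growth arrest genes (-0.13) and 18 of 22 of the Rb, E2F and G1 kinase list (-0.45). With library totals they were 24, 28, 8 and 16, where 44.8% of all genes were negative. Between the sets, other replication genes were lower more often than higher: 21 lower and 5 higher of 40 in set 4 to 6, and 22 lower and 6 higher in set 7 to 9 with TMM. Of all genes, 21% were lower and 31.8% higher in set 4 to 6, and 23.4% lower and 38.1% higher in set 7 to 9. With library totals the list had 15 lower and 5 higher in set 4 to 6, and 6 lower and 9 higher in set 7 to 9. Of all 11066 genes, totals called 1922 lower and 3437 higher in set 4 to 6, and 7.38% lower and 57.6% higher in set 7 to 9. Prim1, the primase subunit that starts each Okazaki fragment, had 793, 636 and 661 normalised CPM in control 1 to 3, 6.43, 36.3 and 22.1 in control 4 to 6 and 68.9, 7.503 and 23.3 in control 7 to 9. Its log2 fold changes were -4.45 (SE 0.65) and -4.67 (SE 0.66). Other mitosis genes were nearer to even, with 7 higher and 13 lower of 40 in set 4 to 6 and 9 higher and 14 lower in set 7 to 9 with TMM (17 higher and 4 lower with library totals).

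Of the kinase inhibitors and growth arrest genes, 7 were higher and 1 lower of 18 tested in set 4 to 6, and 8 higher and 3 lower in set 7 to 9. Of the Rb, E2F and G1 kinase list, 11 were higher and 3 lower of 24 tested in set 4 to 6, and 6 higher and 5 lower in set 7 to 9 with TMM (14 and 2 with library totals). Of all genes, 31.8% were higher and 21% lower in set 4 to 6, and 38.1% and 23.4% in set 7 to 9 (57.6% and 7.38% with library totals). The lists were not tested against these shares. The single genes that follow were chosen after their values were seen. Cdkn1b, the kinase inhibitor p27, had 28.7, 111 and 42.98 normalised CPM in control 1 to 3 and 31.3, 137 and 73.1 in dDAVP 1 to 3. It had 7634, 2617 and 7071 in control 4 to 6 and 7965, 4573 and 14588 normalised CPM with dDAVP, a log2 fold change between sets of 6.62 (SE 0.84) with an edgeR adjusted p of 8.51e-07. Control 7 to 9 had 17.1, 1.94 and 8.33 and dDAVP 7 to 9 10.97, 1.02 and 0.404 normalised CPM, all below the lowest library of set 1 to 3. That placing depends on the scaling. The scaled total was 2.32 times the counted total in control 7 and 0.688 times in control 1. With library totals control 7 lay above control 1. The log2 fold change of set 7 to 9 against set 1 to 3 was -3.48 with TMM and -2.27 with library totals. Cdkn1a, the kinase inhibitor p21, went the opposite way, lower in set 4 to 6 (-2.03 (SE 0.37)) and higher in set 7 to 9 (1.90 (SE 0.36)). Cdkn2a, the locus of p16 and p19Arf, ranged over 0 to 0.183 normalised CPM in set 1 to 3, 0 to 0.189 in set 4 to 6 and 1.97 to 33.6 in set 7 to 9. Cdk4, the partner of cyclin D1, went the opposite way to Ccnd1. It had 3416, 3303 and 3441 normalised CPM in control 1 to 3, 545, 359.6 and 316 in control 4 to 6 and 536, 818 and 516 in control 7 to 9. Its log2 fold changes were -3.13 (SE 0.35) and -2.04 (SE 0.34) with TMM, the second of which was -0.53 and not called with library totals. Myc, a growth factor response gene, was higher in set 4 to 6, at 215, 71.8 and 146 normalised CPM in control against 4.400, 8.12 and 7.16 in control 1 to 3 (4.93 (SE 0.53)).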

How the data were processed

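RNA of 9 control and 9 dDAVP libraries of mpkCCD cells was analysed, with groups taken from the sample titles. Input was 20 ng of RNA and reads were 50 bp and single-end, per the labels' protocols, which describe 2 library methods and do not assign them to libraries. The tools named are STAR 2.4.0.1, HTSeq and SAMtools, and the build mm10, per the submitters' processing notes, which give them no role here. The annotation release and strand setting are not given in the sources used here, so reads of overlapping genes on opposite strands (Mcm7 and Ap4m1, for example) cannot be told apart.

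The deposited counts are whole-number reads per gene. The deposited FPKM are the authors' counts scaled by transcript length and counted reads, listed for 24076 genes. Counted totals were 22.2 to 105.9 M, and a gene with no reads could have had up to 3 counts by counting error alone. Libraries of a group were never duplicates (chi-square per degree of freedom of at least 65.9), and 0 columns were without a sample.

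Counts were tested with edgeR 4.0.16 (quasi-likelihood, TMM, filterByExpr, R 4.3.3), two-sided, with Benjamini-Hochberg adjustment over all genes tested and a threshold of 0.05. The fits were dDAVP against control over 18 libraries without and with the set as a term, dDAVP against control within each set, each later set against 1 to 3, and the interaction of set and treatment. The fits were tested on simulated data. Alternatives used RLE or library totals, no filter or at least 1 CPM in at least 50% of the libraries, DESeq2 1.42.0, limma 3.58.1 (voom with sample quality weights), log2 FPKM with pseudocounts of 1 and 0.1, a replicate block, 1 treatment, or 1 library fewer. Promoter letters were searched with Python 3.11.15, and figures drawn with matplotlib 3.10.9.

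Equal replicate numbers deviated together from the group means over all libraries (r of 0.93, 0.84, 0.86, 0.81, 0.69, 0.64, 0.40, 0.55 and 0.42 for numbers 1 to 9), which by the rule used pairs them. Once set means were removed r lay between -0.71 and 0.43, so within sets they were not treated as pairs. With the numbers as a block, the fit over all libraries again called 0 members.

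Genes were named in full if they were Mki67, Top2a, Pcna or Ccnd1, were among the members with the smallest adjusted p between sets or the highest mean, or had the largest dDAVP change within a set. Other genes named with values were chosen after their values were seen. The members, sets and lists were chosen with earlier results of these data known.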

Additional observations from a re-analysis of the deposited data

Results flagged for a closer look

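Within the 9 control or the 9 dDAVP libraries, 14 levels stood further from the rest than chance gives in about 1 in 20 groups, out of 92 groups looked at. 6 of the 14 were in dDAVP 6, whose TMM-scaled total was 0.306 times its counted total, which raises its normalised CPM. In that library Mcm4 was at 1818 normalised CPM (421 in the next dDAVP library), Rrm2 at 594 (306), Uhrf1, which maintains DNA methylation at the fork, at 322 (144), Chek1 at 36.5 (5.20), Kif11 at 11.4 (3.93) and Ccne2 at 2.16 (0.271). Levels of 3 genes stood out in dDAVP 7, Cdt1 at 556 normalised CPM (144 next), Plk1 at 157 (47.5) and Gins2 at 127 (42.1). In control 8, Gins2 was at 78.3 normalised CPM (29.8 next) and E2f1 at 59.8 (31.5). Cdc20 was at 102 normalised CPM in control 9 (45.9 next), Cdc45 at 90.4 in dDAVP 9 (41.3 next) and Bub1b, a spindle checkpoint kinase, at 13.0 in control 5 (7.11 next). The 9 libraries of a group span the 3 sets, whose levels differ.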

How the results depend on the processing

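List values here are medians of log2 fold changes less that of all genes. For dDAVP with the set as a term, voom with sample quality weights called 1 member and put replication at -0.0989 (0.13 in edgeR). In set 1 to 3 no filter called 1 member, voom weights 6 and the replicate block 3 (Bub1 -1.78, Cenpf -1.35 and Mcm4 -1.27), and leaving out 1 library 0 to 5. The share of all genes called without a filter is not given here. The numbers were not pairs within sets, and the block called 0 members in the other dDAVP fits. Replication in set 1 to 3 was -0.162 with totals, -0.1154 with voom, -0.1574 and -0.2331 with FPKM (pseudocounts 1 and 0.1) and -0.2471 to -0.1241 with 1 library left out (mitosis -0.6598 to -0.2075). In set 4 to 6 replication was 0.05917 with totals, 0.054 with voom, 0.1334 with FPKM (pseudocount 1) and 0.06618 to 0.5349 with 1 library left out. In set 7 to 9 those ranges were -0.01817 to 0.4993 (replication) and -0.3047 to 0.6999 (mitosis).

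For set 4 to 6 against 1 to 3, dDAVP libraries alone called 18 members (5 higher, 13 lower), with replication at -1.035 and mitosis at -1.348. Replication was -0.962 without a filter, -1.063 with the strict one, -0.5952 and -0.8285 with FPKM (pseudocounts 1 and 0.1) and -1.562 to -1.066 with 1 library left out. Mitosis was -1.72 with the strict filter and -1.496 and -1.573 with FPKM. For set 7 to 9, dDAVP libraries alone called 13 (4 higher, 9 lower), with replication at -1.375. Replication was -1.337 without a filter, -1.232 with the strict one, -1.298 with voom, -0.7925 and -1.146 with FPKM, -1.73 in control libraries alone and -1.631 to -1.045 with 1 library left out. Mitosis was -0.9982 with FPKM (pseudocount 1), -2.021 in control libraries alone and -1.864 to -1.333 with 1 left out. Both comparisons called 26 to 30 members with 1 library left out. The share of all genes called is not given for dDAVP libraries alone or with 1 library left out, so these counts do not single out the members.

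Values of the opposite sign in set 7 to 9 against 1 to 3, among genes that passed in at least 1 of the fits, came with totals for 10 members: Mcm3 (0.33), Cdk1 (0.31), Cenpe (0.14), Cdc6 (1.44), Uhrf1 (1.14), Mcm2 (0.2893), Mcm7 (0.5284), Cenpa (1.175), Bub1 (0.01133) and Kif23 (0.4006). Other settings were run gene by gene for the 24 genes named by rule. With FPKM opposite signs came for Mcm2 (0.1664 with both pseudocounts), Mcm7 (0.2781 and 0.2773) and Cenpa (1.107 and 1.115), and in control libraries alone for Cdc45 (-1.168). Of values that passed in neither fit, 305 of 2543 changed sign. Apart from what the settings themselves change (fewer libraries, other scaling), the cause of these shifts was not tested. Depth limits Ccne2 most, with 0 to 59 reads per library.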
